A study of Mus musculus with 8 samples.

Results

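The microfold mimetic cell genes are 7 genes known from microfold (M) cells, namely Spib, Sox8, Gp2, Tnfaip2, Ccl9, Ccl20 and Pglyrp1. They were chosen by name and read from the deposited table of estimated counts after its Ensembl identifiers had been matched to gene symbols. Each symbol matched 1 row, so that 7 of the 25466 genes in the table were members, and all 7 were among the 17006 genes tested after a filter on low counts. The table covered 8 RNA-seq libraries of medullary thymic epithelial cells (mTECs) from BL6N6 wild-type mice of 4 to 6 weeks of age, and every library was of the same genotype with no treatment. The cells had been sorted as CD45neg Epcampos CDR1neg and then split by surface Tspan8, a tetraspanin that in the study stands for a tissue-restricted antigen, and by MHCII, which is used to follow mTEC maturation. This gave 4 subsets with 2 biological replicates each, Tspan8neg MHCIIlo, Tspan8neg MHCIIhi, Tspan8pos MHCIIhi and Tspan8pos MHCIIlo. Separate mice are not stated for the replicates, so p-values measure the spread between these libraries, which may be technical.

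M cells are epithelial cells that lie over lymphoid follicles of mucosal tissues, such as Peyer's patches, and carry particles from the lumen to the immune cells beneath. RANK signalling induces them, and the transcription factors Spib and Sox8 are needed for their full differentiation, which includes the uptake receptor Gp2 at their surface. In the thymic medulla some mTECs switch on programmes that resemble peripheral cell types, and Gp2-bearing microfold mTECs are one of these mimetic cell types.

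In these libraries 6 of the 7 genes were higher in Tspan8pos than in Tspan8neg mTECs at both MHCII levels, by between 2.85-fold (Tnfaip2, MHCIIhi) and 9.07-fold (Pglyrp1, MHCIIhi). Spib was the exception. It was 2.40-fold higher in Tspan8pos mTECs at the MHCIIlo level, whereas at the MHCIIhi level its log2 difference was -0.25 ± 0.16 (SE). Between MHCIIhi and MHCIIlo, no member had both an adjusted p under 0.01 and a log2 fold change of at least 1 within either Tspan8 level. Spib within Tspan8pos (-0.99) and Gp2 within Tspan8neg (-0.91) missed only the limit on the fold change.

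Values are given as CPM, counts scaled to a common library size with the TMM factors of edgeR so that a gene can be compared between libraries. Where genes are set against each other, CPM was divided by the length of the merged exons in kilobases. A gene was called where edgeR's quasi-likelihood test gave an adjusted p under 0.01 and a log2 fold change of at least 1 in size. Library totals lay between 1941518 and 7783841 counts, and 3 counts, taken as the floor of detection, corresponded to between 0.385 and 1.65 CPM. The smallest total belonged to replicate 1 of Tspan8pos MHCIIlo. The sort was visible in the data, since Tspan8 was between 347.4 and 404.5 CPM in the Tspan8pos libraries and between 3.65 and 14.6 CPM in the Tspan8neg libraries. H2-Ab1, a subunit of MHCII, was higher in MHCIIhi than in MHCIIlo within both Tspan8 levels, by 1.42 and 2.33 on the log2 scale. These are bulk libraries, in which fewer cells of a type and less RNA per cell cannot be told apart.

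The members lie on 5 chromosomes, and the start regions of 4 of them are shown because they hold the searched motifs or belong to the gene that differed from the others. Coordinates are those of GRCm38. Spib, Gp2 and Pglyrp1 are on chromosome 7, at chr7:44525993-44532071, chr7:119442537-119459285 and chr7:18871331-18890459. Sox8 is at chr17:25565892-25570686, Tnfaip2 at chr12:111442469-111455018, Ccl9 at chr11:83572919-83578636 and Ccl20 at chr1:83116766-83119167. All 7 are protein-coding, and the RefSeq start of Pglyrp1 lies inside the span that GENCODE gives the gene. Of the windows of 54 bases, the read length, in their transcripts, 1.5% for Ccl9 and 2.45% for Pglyrp1 recur in transcripts of other genes, and 0% for Ccl20. The sequences come from RefSeq (build GRCm38.p6), run 5′ to 3′ on the strand of the gene from 250 bases before its start to 20 bases after it, and carry motif matches in capitals. Those of Gp2 (chr7:119459253-119459522, minus strand), Ccl20 (chr1:83116516-83116785, plus strand) and Pglyrp1 (chr7:18884440-18884709, plus strand) hold matches, and that of Spib (chr7:44532052-44532321, minus strand) holds none.
Gp2: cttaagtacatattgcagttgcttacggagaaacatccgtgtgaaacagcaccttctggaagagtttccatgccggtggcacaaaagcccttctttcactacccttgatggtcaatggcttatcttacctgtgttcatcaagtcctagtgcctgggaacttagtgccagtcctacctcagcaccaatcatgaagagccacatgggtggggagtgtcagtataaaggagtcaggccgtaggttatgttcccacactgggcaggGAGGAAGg
Ccl20: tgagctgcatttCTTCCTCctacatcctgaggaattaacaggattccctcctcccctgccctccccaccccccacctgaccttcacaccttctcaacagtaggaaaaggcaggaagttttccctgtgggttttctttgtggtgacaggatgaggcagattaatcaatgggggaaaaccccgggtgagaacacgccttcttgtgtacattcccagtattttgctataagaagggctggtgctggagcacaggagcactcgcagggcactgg
Pglyrp1: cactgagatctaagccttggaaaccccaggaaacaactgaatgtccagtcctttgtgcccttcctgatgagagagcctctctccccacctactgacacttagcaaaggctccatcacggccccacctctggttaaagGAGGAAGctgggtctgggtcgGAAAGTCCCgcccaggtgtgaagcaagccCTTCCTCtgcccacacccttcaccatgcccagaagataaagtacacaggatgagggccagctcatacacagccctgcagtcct
Spib: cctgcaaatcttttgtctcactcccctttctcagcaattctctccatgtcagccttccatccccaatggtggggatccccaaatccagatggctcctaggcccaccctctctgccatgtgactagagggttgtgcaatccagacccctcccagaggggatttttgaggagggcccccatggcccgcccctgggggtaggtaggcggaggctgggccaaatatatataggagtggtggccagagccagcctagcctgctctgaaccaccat

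The motifs were GAGGAAG, a purine-rich core bound by the Spi factors Spi1 and Spib, AACAAT for SOX factors and GGGANTTTC for NF-kB, on both strands of windows of 300 bases. The Spi core was found in 3 of the 7 member windows. It began 13 bases after the start of Gp2, 238 bases before the start of Ccl20 on the opposite strand, and 113 and 63 bases before that of Pglyrp1, the second of these on the opposite strand. Of 32851 mouse promoter windows 13.6% held this core. The NF-kB letters were found only in Pglyrp1 among the members, 92 bases before the start on the opposite strand and between the Spi matches without overlap, and in 1.11% of all windows. The SOX letters were in none of the member windows and in 10.7% of all windows. Only these exact letters were searched, so that other forms of each motif were not counted. A match is a description of the letters, and none of these windows was tested for binding.

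Spib, an Ets family factor, was at 290.4 and 396.1 CPM in the replicates of Tspan8neg MHCIIlo and at 485.6 and 505.5 CPM in Tspan8neg MHCIIhi. It was at 386.7 and 445.2 CPM in Tspan8pos MHCIIhi and at 883.3 and 768.8 CPM in Tspan8pos MHCIIlo. Both Tspan8pos MHCIIlo libraries therefore lay above all 6 others, while Tspan8pos MHCIIhi overlapped with Tspan8neg MHCIIlo and lay below Tspan8neg MHCIIhi. Within MHCIIlo, Spib was higher in Tspan8pos by 1.26 ± 0.16 (log2, SE, adjusted p = 0.000111, edgeR). Within MHCIIhi the difference was -0.25 (95% interval -0.60 to 0.10, adjusted p = 0.237). The change of the Tspan8 difference between MHCII levels was -1.52 ± 0.23 on the log2 scale (interaction term, adjusted p = 0.00218), and Spib was the only member of the 7 called in this test, in which 4.6% of all tested genes were called in either direction. This call was lost when replicate 2 of Tspan8neg MHCIIhi, replicate 1 of Tspan8pos MHCIIhi, or replicate 1 or 2 of Tspan8pos MHCIIlo was left out, with values of -1.55, -1.39, -1.38 and -1.61, respectively. The interaction values of the other members ranged from -0.45 ± 0.40 (Sox8, 95% interval -1.34 to 0.43) to 0.43 ± 0.37 (Ccl9).

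Sox8, an HMG box factor that acts late in M cell differentiation, had the lowest level of the members per kilobase in every subset. It was at 8.99 and 18.6 CPM in Tspan8neg MHCIIlo, at 8.94 and 13.6 CPM in Tspan8neg MHCIIhi, at 38.8 and 38.2 CPM in Tspan8pos MHCIIhi and at 62.7 and 65.5 CPM in Tspan8pos MHCIIlo. All 4 Tspan8pos libraries were above all 4 Tspan8neg libraries, and the ranges of the Tspan8neg subsets overlapped. The Tspan8 difference of Sox8 was 2.20 ± 0.29 in MHCIIlo (log2, SE, adjusted p = 0.000124) and 1.74 ± 0.28 in MHCIIhi (adjusted p = 0.000573). The MHCIIlo difference was 1.78 without replicate 1 and 2.84 without replicate 2 of Tspan8neg MHCIIlo, and the MHCIIhi difference was not called without replicate 1 of Tspan8neg MHCIIhi (1.42). The strand of the reads is not settled in the sources used here, and 8.86% of the 54-base windows of the Sox8 transcripts are shared with 2810468N07Rik on the opposite strand, a gene with 13 to 238 counts a library against 32 to 480 for Sox8, so that the level of Sox8 is uncertain to that extent.

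Gp2, the glycoprotein at the apical surface of M cells that binds type 1 fimbriae of bacteria, had the widest range of the members. It was at 127.0 and 192.4 CPM in Tspan8neg MHCIIlo, at 69.7 and 100.2 CPM in Tspan8neg MHCIIhi, at 699.6 and 767.6 CPM in Tspan8pos MHCIIhi, and at 1463 and 1221 CPM in Tspan8pos MHCIIlo. None of the 4 subsets overlapped with another, and the order was Tspan8pos MHCIIlo, Tspan8pos MHCIIhi, Tspan8neg MHCIIlo and Tspan8neg MHCIIhi. Gp2 was higher in Tspan8pos mTECs by 3.07 ± 0.23 in MHCIIlo (log2, SE, adjusted p = 1.92e-06) and by 3.10 ± 0.23 in MHCIIhi (adjusted p = 2.05e-06). The difference between these values was 0.04 (95% interval -0.62 to 0.69). None of the 54-base windows of the Gp2 transcripts is shared with another gene.

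Tnfaip2, which drives membrane protrusions and is also called M-Sec, was the most even member between replicates. It was at 107.3 and 126.1 CPM in Tspan8neg MHCIIlo, at 115.8 and 120.6 CPM in Tspan8neg MHCIIhi, at 331.4 and 341.8 CPM in Tspan8pos MHCIIhi and at 399.6 and 444.6 CPM in Tspan8pos MHCIIlo. The Tspan8neg subsets overlapped and every Tspan8pos library was above them. The Tspan8 difference was 1.86 ± 0.14 in MHCIIlo (log2, SE, adjusted p = 2e-06) and 1.51 ± 0.13 in MHCIIhi (adjusted p = 8.63e-06). Of the 54-base windows of Tnfaip2, 4.44% are shared with Gm40578 on the opposite strand, which was not analysed here.

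**Figure D1:**
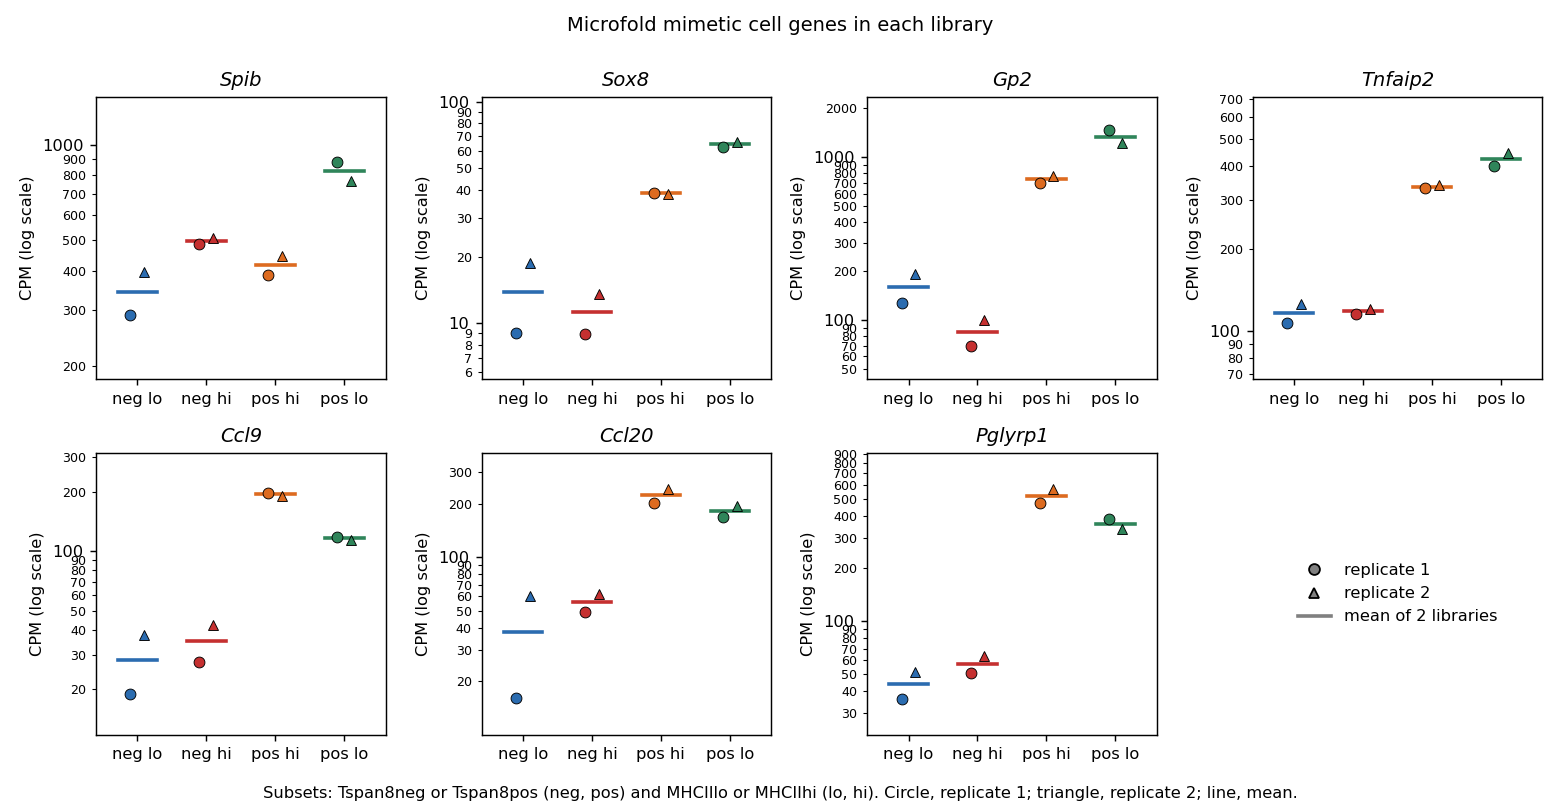
Level of each member in CPM on a logarithmic axis (each panel has its own range), in the subsets Tspan8neg MHCIIlo, Tspan8neg MHCIIhi, Tspan8pos MHCIIhi and Tspan8pos MHCIIlo; circles are replicate 1, triangles replicate 2 and lines the mean of 2 libraries. For every member but Spib the 4 Tspan8pos libraries lie above the 4 Tspan8neg libraries, and the highest pair is Tspan8pos MHCIIlo for Spib, Sox8, Gp2 and Tnfaip2 and Tspan8pos MHCIIhi for Ccl9, Ccl20 and Pglyrp1. The share of all tested genes separated in this way was not counted, and 12.1% (MHCIIlo) and 11% (MHCIIhi) of them were called higher in Tspan8pos.

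The 3 secreted members were highest in Tspan8pos MHCIIhi. Ccl20, the chemokine that draws Ccr6-bearing cells to the follicle epithelium, was at 16.0 and 60.1 CPM in Tspan8neg MHCIIlo and at 49.3 and 62.3 CPM in Tspan8neg MHCIIhi. It was at 202.7 and 241.6 CPM in Tspan8pos MHCIIhi and at 168.7 and 192.6 CPM in Tspan8pos MHCIIlo. The Tspan8neg subsets overlapped, and replicate 1 of Tspan8neg MHCIIlo was the lowest library by far. Its Tspan8 difference was 2.23 ± 0.40 in MHCIIlo (log2, SE, adjusted p = 0.00116) and 1.99 ± 0.38 in MHCIIhi (adjusted p = 0.0019), with the largest errors among the members. In MHCIIlo the difference moved between 1.59 without replicate 1 and 3.50 without replicate 2 of Tspan8neg MHCIIlo, and was not called without replicate 2 of Tspan8pos MHCIIlo (2.13). In MHCIIhi it was not called without either replicate of Tspan8neg MHCIIhi (1.76 and 2.10) or without replicate 2 of Tspan8pos MHCIIhi (1.87).

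Ccl9, a chemokine of the dome epithelium that signals through Ccr1, was at 18.8 and 37.5 CPM in Tspan8neg MHCIIlo and at 27.5 and 42.4 CPM in Tspan8neg MHCIIhi, ranges that overlapped. It was at 197.6 and 191.2 CPM in Tspan8pos MHCIIhi and at 118.2 and 114.4 CPM in Tspan8pos MHCIIlo, and these did not overlap with each other or with the Tspan8neg libraries. The Tspan8 difference was 2.03 ± 0.28 in MHCIIlo (log2, SE, adjusted p = 0.000167) and 2.46 ± 0.26 in MHCIIhi (adjusted p = 3.14e-05). The first of these was 1.62 without replicate 1 and 2.62 without replicate 2 of Tspan8neg MHCIIlo. Ccl6, a chemokine of the same family, is the next gene to Ccl9 on chromosome 11, 9245 bases away with no gene between, and its Tspan8 differences were 1.68 ± 0.30 and 2.37 ± 0.28 in MHCIIlo and MHCIIhi. The first was 1.18 without replicate 1 and 2.52 without replicate 2 of Tspan8neg MHCIIlo. Both were called, the first not without replicate 2 of Tspan8pos MHCIIlo (1.65) or with only the 4 libraries compared (1.69). Per kilobase, Ccl9 was between 0.976 and 1.68 times the level of Ccl6 in the 8 libraries.

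Pglyrp1, a secreted protein that binds bacterial peptidoglycan, was at 36.2 and 51.4 CPM in Tspan8neg MHCIIlo and at 50.7 and 63.3 CPM in Tspan8neg MHCIIhi. It was at 469.4 and 569.5 CPM in Tspan8pos MHCIIhi and at 382.0 and 334.3 CPM in Tspan8pos MHCIIlo. The Tspan8neg subsets overlapped slightly, and every Tspan8pos library was far above every Tspan8neg library. Pglyrp1 was higher in Tspan8pos mTECs by 3.02 ± 0.20 in MHCIIlo (log2, SE, adjusted p = 9.18e-07) and by 3.18 ± 0.20 in MHCIIhi (adjusted p = 6.82e-07).

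Over the list, 7 of 7 members were called higher in Tspan8pos within MHCIIlo, where 12.1% of all tested genes were called higher and 9.34% lower. Within MHCIIhi 6 of 7 were called higher, against 11% of all tested genes higher and 7.45% lower. The median log2 difference of the members was 2.20 in MHCIIlo and 1.99 in MHCIIhi, beside -0.03 over all tested genes in each. For every member but Spib, each Tspan8pos library was above each Tspan8neg library. How many of all tested genes were separated in this way was not counted. Summed over the 7 members, the Tspan8pos libraries had between 2326 and 3477 CPM and the Tspan8neg libraries between 604.7 and 908 CPM, so that the sums did not overlap. Gp2 was the largest part of the Tspan8pos sums. The sums did not overlap either for the further M cell genes described below (4487 to 5193 against 2161 to 3097 CPM). The same held for the relatives of the members (600.4 to 679.9 against 389.3 to 598.1 CPM), so this was not particular to the members.

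**Figure D2:**
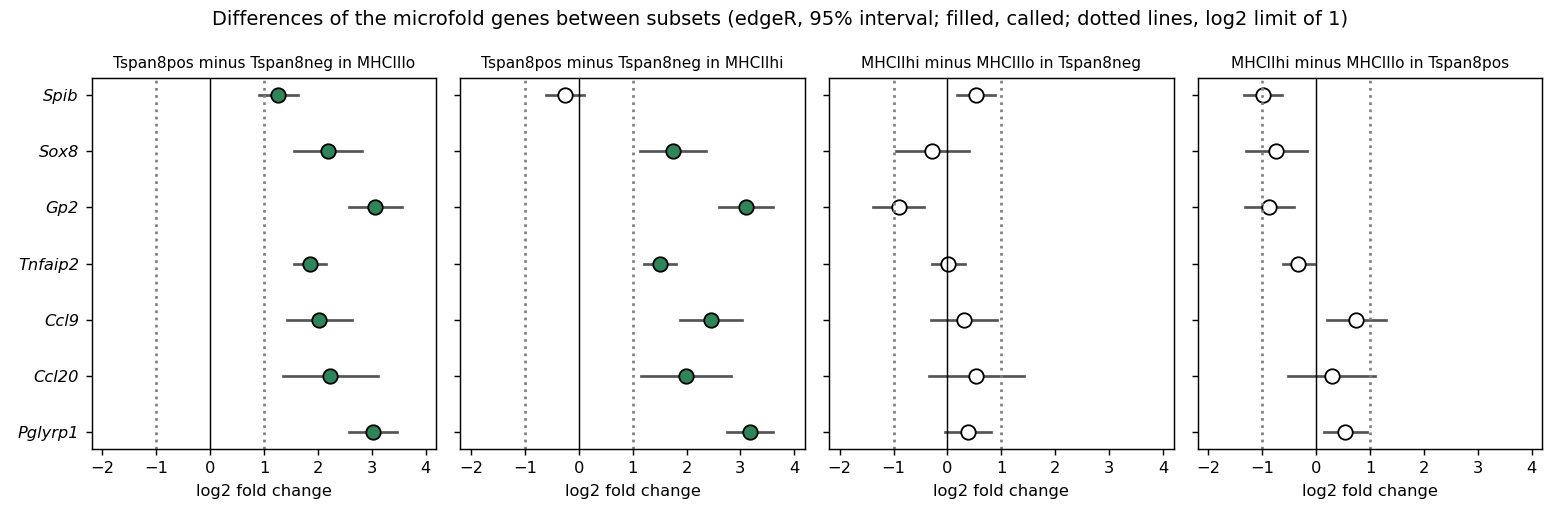
Log2 fold change of each member in the comparisons of Tspan8pos with Tspan8neg at each MHCII level (left panels) and of MHCIIhi with MHCIIlo at each Tspan8 level (right panels), with 95% intervals from edgeR; filled points are called and dotted lines mark the log2 limit of 1. Every point but that of Spib in MHCIIhi is filled in the left panels, and none is filled in the right panels.

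Between MHCIIhi and MHCIIlo, 0 of 7 members were called within Tspan8neg, where 13.1% of all tested genes were called higher and 9.67% lower, and 0 of 7 within Tspan8pos, where 4.59% were called higher and 2.62% lower. DESeq2's Wald test called 0 members in both comparisons as well. At an unadjusted p under 0.05, edgeR had 2 members within Tspan8neg, Spib higher and Gp2 lower in MHCIIhi, and 6 members within Tspan8pos. The share of all tested genes under this looser threshold was not counted, so these numbers cannot be weighed against it. Gp2 had similar log2 differences at both Tspan8 levels, -0.91 ± 0.22 (SE) in Tspan8neg (adjusted p = 0.00614) and -0.87 ± 0.21 in Tspan8pos (adjusted p = 0.0152). The first misses only the limit on the fold change, and was called without replicate 1 of Tspan8neg MHCIIlo (-1.18) and after all libraries were thinned to the smallest total (-1.03). For Spib the log2 differences were 0.53 ± 0.16 in Tspan8neg (adjusted p = 0.0208) and -0.99 ± 0.16 in Tspan8pos (adjusted p = 0.00171), the latter again short of the fold limit alone and called after thinning (-1.05). Ccl20 was called within Tspan8neg without replicate 2 of Tspan8neg MHCIIlo (1.8), against 0.54 ± 0.40 with it. Subsets of the same Tspan8 level were thus called different for none of the members. For Gp2 within Tspan8neg and Spib within Tspan8pos this was through the fold limit alone.

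Within Tspan8pos mTECs the members with a negative log2 difference between MHCIIhi and MHCIIlo were the factors Spib and Sox8, the surface receptor Gp2 and Tnfaip2, and those with a positive value were the secreted Ccl9, Ccl20 and Pglyrp1. The values were -0.74 ± 0.26 for Sox8 and -0.33 ± 0.13 for Tnfaip2, compared with 0.74 ± 0.25 for Ccl9, 0.54 ± 0.18 for Pglyrp1 and 0.29 ± 0.37 for Ccl20. None of these 5 reached an adjusted p under 0.05 (0.0748, 0.119, 0.0649, 0.0633 and 0.659), and the 95% interval of Ccl20, from -0.52 to 1.10, included 0. This grouping by role was described after the values were seen.

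Ratios between members within a library do not depend on the scaling of the libraries. Per kilobase, Gp2 was 0.627 and 0.697 times the level of Spib in Tspan8neg MHCIIlo and 0.206 and 0.285 times in Tspan8neg MHCIIhi. It was 2.60 and 2.48 times the level of Spib in Tspan8pos MHCIIhi and 2.38 and 2.28 times in Tspan8pos MHCIIlo. Gp2 was therefore the lower of the pair in all 4 Tspan8neg libraries and the higher in all 4 Tspan8pos libraries, where the ratio was near the same at both MHCII levels.

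Pglyrp1 per kilobase was between 0.284 and 0.310 times the level of Gp2 in the 4 MHCIIlo libraries and between 0.687 and 0.807 times in the 4 MHCIIhi libraries, whatever their Tspan8 level. The ratio of Ccl9 to Gp2 was also higher in MHCIIhi at each Tspan8 level, at 0.259 and 0.278 against 0.0973 and 0.128 in Tspan8neg and at 0.185 and 0.163 against 0.0530 and 0.0615 in Tspan8pos. The ratios of Ccl20 and Tnfaip2 to Gp2 were higher in MHCIIhi at each Tspan8 level too, that of Tnfaip2 at 0.667 and 0.482 against 0.339 and 0.263 in Tspan8neg and at 0.190 and 0.178 against 0.110 and 0.146 in Tspan8pos, so that this pattern was not confined to the secreted members. All of these ratios share Gp2 as the denominator. Gp2 itself had log2 differences between MHCIIhi and MHCIIlo of -0.91 in Tspan8neg and -0.87 in Tspan8pos. A gene without any change would therefore also have a higher ratio in MHCIIhi. These ratios are descriptions, chosen after the values were seen and with no test.

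**Figure D3:**
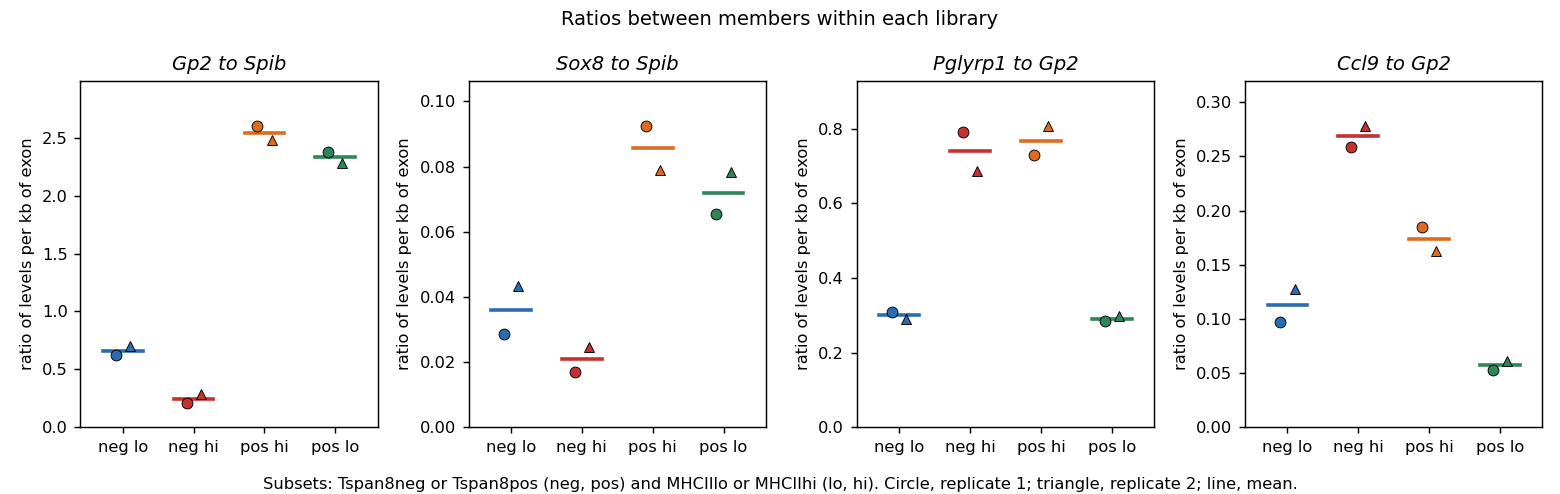
Ratios between pairs of members, each as CPM per kilobase of merged exon, in every library; circles are replicate 1, triangles replicate 2 and lines the mean of 2 libraries. The ratio of Gp2 to Spib separates Tspan8pos from Tspan8neg libraries, and those of Pglyrp1 and Ccl9 to Gp2 are higher in MHCIIhi than in MHCIIlo libraries of the same Tspan8 level.

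Per kilobase of exon, the order of the mean levels in Tspan8pos MHCIIlo was Gp2 (671.5 ± 85.6 CPM per kb, SD, n = 2), Spib (288 ± 28.2), Pglyrp1 (195 ± 18.4), Ccl20 (127.1 ± 11.9), Tnfaip2 (84.7 ± 6.38), Ccl9 (38.2 ± 0.879) and Sox8 (20.6 ± 0.649). In Tspan8neg MHCIIhi Spib led at 172.8 ± 4.92 CPM per kb, followed by Gp2 at 42.5 ± 10.8 and Ccl20 at 39.3 ± 6.47, a pair that did not differ beyond their spread. Spib was thus far above the other members in a subset where Gp2 was at its lowest.

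Across the other pairs of subsets, 6 of 7 members were called higher in Tspan8pos MHCIIlo than in Tspan8neg MHCIIhi, where 14.7% of all tested genes were called higher, and 6 of 7 in Tspan8pos MHCIIhi than in Tspan8neg MHCIIlo, where the share was 14.4%. Spib was the member not called in either, at 0.74 ± 0.16 (adjusted p = 0.00277) and 0.28 ± 0.16 (adjusted p = 0.181). These comparisons use the same 8 libraries as those above and add no further evidence. Gp2 had the largest log2 difference of the members in the first, 3.97 ± 0.24, and Pglyrp1 in the second, 3.56 ± 0.20. Ccl20 in the first (1.69) was not called when either replicate of Tspan8neg MHCIIhi (1.44 and 1.78) or of Tspan8pos MHCIIlo (1.78 and 1.6) was left out, and Sox8 in the second (1.46) was not called without replicate 1 or 2 of Tspan8pos MHCIIhi (1.46 and 1.48). Leaving out replicate 1 or 2 of Tspan8neg MHCIIlo moved the second comparison to 1.06 or 2.10 for Sox8, to 2.39 or 3.37 for Ccl9 and to 1.9 or 3.79 for Ccl20.

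Replicates differed most in the Tspan8neg subsets. Replicate 2 of Tspan8neg MHCIIlo was above replicate 1 for 7 of 7 members, by between 1.18 (Tnfaip2) and 3.76 (Ccl20) times, with a median ratio of 1.52 beside 1.02 over all tested genes. Of the tested genes detected in both libraries, 53% were higher in replicate 2. In Tspan8neg MHCIIhi the ratio was between 1.04 and 1.55, again above 1 for 7 of 7, beside 51.5% of the tested genes detected in both libraries. All 6 thymocyte markers (2.29 to 3.47 times) and all 5 B cell markers (1.68 to 5.46 times) were also higher in replicate 2 of Tspan8neg MHCIIlo. From replicate 1 to 2 the summed CPM rose for cortical epithelium (129.8 to 283.4), fibroblast (50 to 127.6) and neutrophil markers (12.1 to 35.4). It also rose for dendritic cell and macrophage (59.3 to 123.3) and tuft markers (866.5 to 1161). It fell for plasmacytoid dendritic cell (355 to 341.9), endothelium (98.9 to 82.05) and mTEC markers (12100 to 9597). The part of any of these cells in the members' values was not tested.

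Several members are also expressed by blood cells, Spib by B cells and plasmacytoid dendritic cells, Pglyrp1 by neutrophils and Ccl9 by myeloid cells. Depletion of CD45-bearing cells with beads and the CD45neg Epcampos gate would remove such cells, and their markers were still measured. The summed B cell markers were between 39.6 and 153.6 CPM in Tspan8pos and between 62.6 and 840 CPM in Tspan8neg. In Tspan8pos 1 of 5 was called higher (Cd79b) and 2 lower within MHCIIlo, and none within MHCIIhi. Of all tested genes 12.1% were called higher and 9.34% lower within MHCIIlo, and 11% and 7.45% within MHCIIhi. For plasmacytoid dendritic cells the sums were 201.3 to 315.3 against 341.9 to 514.1 CPM, with 0 of 4 tested markers called at either MHCII level. In Tspan8neg MHCIIhi, Irf8 of that list averaged 407.5 CPM and Siglech 0.59 CPM. For neutrophils the sums were 58.3 to 136.5 against 12.1 to 193.5 CPM (of 5 tested, S100a9 called higher within MHCIIlo and Mpo lower within MHCIIhi). For dendritic cells and macrophages they were 219.3 to 489.7 against 59.3 to 439.6 CPM. The last list had Itgam and Cd68 called higher in Tspan8pos within MHCIIlo and Itgam within MHCIIhi, and Itgax and Adgre1 lower in 1 comparison each. Itgam, an integrin of myeloid cells, was at 90.7 to 164.4 CPM in Tspan8pos and at 4.49 to 22.6 CPM in Tspan8neg libraries, with log2 differences of 3.81 ± 0.29 and 3.06 ± 0.25. Siglech, Itgax and Adgre1 were at 0 counts in replicate 1 of Tspan8pos MHCIIlo, the smallest library. In replicate 2 they were at between 0.819 and 0.956 CPM, above its floor of 0.41 CPM. The other plasmacytoid dendritic cell and dendritic cell and macrophage markers averaged between 3.63 (Xcr1) and 95.9 CPM (Itgam) in that subset. Irf8 was at 73.5, Bst2 at 70.9 and Lyz2 at 67.6 CPM among them. The part of these cells in the members' values was not tested.

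Tuft markers also moved with the Tspan8 gate, with sums of 886.4 to 5492 against 130.2 to 1161 CPM. In Tspan8pos 5 of 5 were called higher at each MHCII level, beside 12.1% (MHCIIlo) and 11% (MHCIIhi) of all tested genes. In MHCIIhi 5 of 5 were called lower at both Tspan8 levels, beside 9.67% (Tspan8neg) and 2.62% (Tspan8pos). Of the microfold members 0 of 7 were called between MHCII levels. For the remaining cell types the sums overlapped between the Tspan8 levels, at 67.5 to 196.4 against 62.8 to 932.7 CPM for thymocytes, 73.1 to 202.3 against 129.8 to 404.5 CPM for cortical epithelium, 29.3 to 63.9 against 50 to 127.6 CPM for fibroblasts and 11.6 to 58.8 against 17.1 to 98.9 CPM for endothelium. Within MHCIIlo, Cd3e, Lck, Prss16 and Pecam1 of these lists were called lower in Tspan8pos, and within MHCIIhi Col1a1. The 10 mTEC markers summed to between 7452 and 25162 CPM in every library. Marker genes named here were picked after their values were seen.

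Of 12 further genes linked to M cells, 11 were tested. Within MHCIIlo, 5 were called higher in Tspan8pos, and within MHCIIhi 4, beside 12.1% and 11% of all tested genes, with median log2 differences of 0.42 and 0.08. The first count fell from 5 to 3 without replicate 2 of Tspan8pos MHCIIlo, where Tnfrsf11b (0.93) and Ccl6 (1.65) were lost. None was called lower by edgeR, and at an unadjusted p under 0.05 the number lower was 0 within MHCIIlo and 1 within MHCIIhi. At that threshold 6 and 5 were higher, and the share of all tested genes was not counted. Between MHCIIhi and MHCIIlo, 3 were called higher within Tspan8neg and 2 within Tspan8pos, beside 13.1% and 4.59% of all tested genes. Over the 15 alternatives the latter 2 ran from 1.03 to 1.27 (Tnfrsf11b) and from 0.92 to 1.32 (Scg5). Neither kept its call in all of them. Clu (clusterin) and Msln (mesothelin) were higher at both MHCII levels, Clu by 1.87 ± 0.12 and 2.41 ± 0.12 and Msln by 1.36 ± 0.12 and 2.34 ± 0.12 on the log2 scale, and kept these calls in all 15 alternatives. Msln was at 859.7 to 968.0 CPM in the Tspan8pos libraries, at 351.4 and 359.8 CPM in Tspan8neg MHCIIlo and at 187.2 and 185.6 CPM in Tspan8neg MHCIIhi. Ctsh, a lysosomal protease, stood apart from both, at 39.6 and 55.9 CPM in Tspan8neg MHCIIlo and at 283.1 to 330.4 CPM in the 6 libraries of the other subsets. Umod, a relative of Gp2, was between 7.90 and 20.3 CPM in all libraries and was not called in any comparison.

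RANK, encoded by Tnfrsf11a, is the receptor whose ligand induces M cells. Tnfrsf11a did not follow the members. It was at 88.5 and 63.4 CPM in Tspan8neg MHCIIlo, at 188.6 and 196.9 CPM in Tspan8neg MHCIIhi, at 135.0 and 128.4 CPM in Tspan8pos MHCIIhi and at 63.8 and 66.8 CPM in Tspan8pos MHCIIlo. Its log2 difference between MHCIIhi and MHCIIlo was 1.35 ± 0.16 in Tspan8neg and 1.01 ± 0.16 in Tspan8pos (adjusted p = 7.72e-05 and 0.00175), and between Tspan8pos and Tspan8neg -0.21 ± 0.17 and -0.55 ± 0.16, not called. The call within Tspan8pos was lost in 5 of 15 alternatives, at values between 0.99 and 1.05, which were leaving out any one of its 4 libraries and the replicate block.

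The decoy receptor Tnfrsf11b, or osteoprotegerin, binds the same ligand and was highest in Tspan8neg MHCIIhi, at 210.7 and 203.3 CPM, and lowest in Tspan8neg MHCIIlo, at 44.7 and 33.2 CPM. The log2 difference between MHCIIhi and MHCIIlo was 2.41 ± 0.17 in Tspan8neg and 1.14 ± 0.16 in Tspan8pos, both called, the second lost without replicate 1 of Tspan8pos MHCIIhi (1.03) and without replicate 1 or 2 of Tspan8pos MHCIIlo (1.11 and 1.23). Its Tspan8 difference in MHCIIlo, 1.00 ± 0.18, sat at the fold limit and was lost in 6 of 15 alternatives.

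A further list held 11 genes of RANK to NF-kB signalling and of the factors upstream of Spib and Sox8. In Tspan8pos within MHCIIlo, 1 was called higher (Esrrg) and 1 lower (Tnfsf11), beside 12.1% and 9.34% of all tested genes. Within MHCIIhi 0 were called in either direction, beside 11% of all tested genes higher and 7.45% lower. There 6 of the list had an unadjusted p under 0.05 in edgeR, 1 of them higher and 5 lower, and the share of all tested genes at that threshold was not counted. Within Tspan8neg, 5 were called higher and 2 lower (Tnfsf11 and Atoh8) in MHCIIhi, beside 13.1% and 9.67% of all tested genes, and within Tspan8pos 1 was called higher, beside 4.59%. Relb and Nfkb2, which encode the subunits of the alternative NF-kB pathway, and Traf6, an adaptor of RANK, were higher in MHCIIhi within Tspan8neg by 1.18 ± 0.14, 1.16 ± 0.14 and 1.08 ± 0.14. Within Tspan8pos the same differences were 0.47 ± 0.14, 0.30 ± 0.14 and 0.49 ± 0.15, and were not called. The change of the difference between Tspan8 levels (interaction term) was -0.71 for Relb, -0.86 for Nfkb2 and -0.60 for Traf6, and was not called either (adjusted p = 0.037, 0.0162 and 0.081, edgeR). Esrrg, a nuclear receptor upstream of Sox8 in M cells, was at 3.09 and 5.42 CPM in Tspan8neg MHCIIlo, at 13.9 and 20.8 CPM in Tspan8neg MHCIIhi, at 36.8 and 30.3 CPM in Tspan8pos MHCIIhi and at 20.3 and 25.1 CPM in Tspan8pos MHCIIlo. It was higher in Tspan8pos by 2.42 ± 0.33 in MHCIIlo (adjusted p = 0.000172) and by a value not called, 0.93 ± 0.26, in MHCIIhi. Tnfsf11, the RANK ligand, had 29 and 109 counts in Tspan8neg MHCIIlo and between 0 and 14 counts in each other library.

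**Figure D4:**
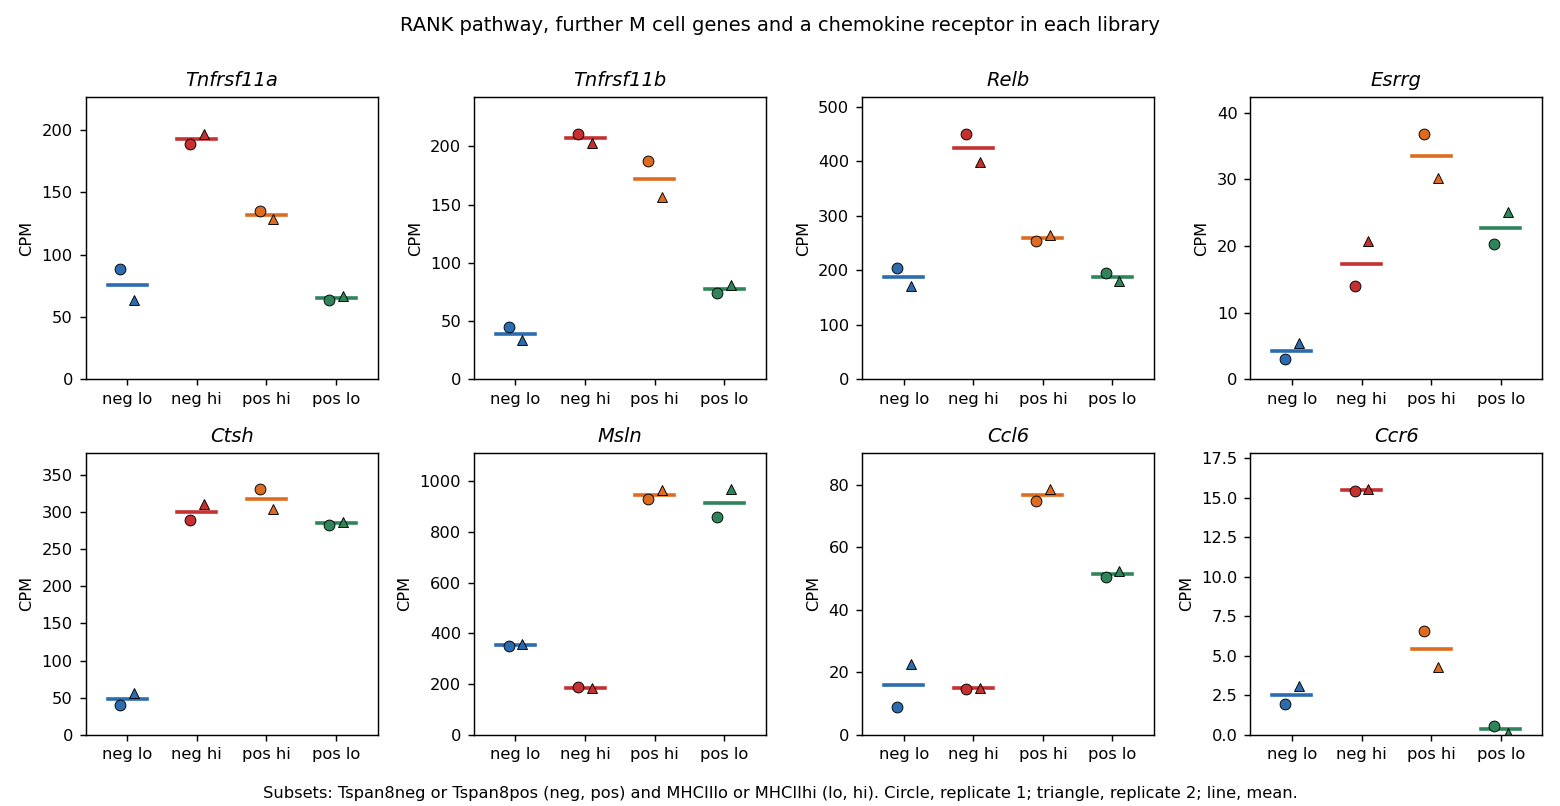
Levels in CPM for the RANK receptor Tnfrsf11a, the decoy receptor Tnfrsf11b, Relb, Esrrg, the M cell genes Ctsh, Msln and Ccl6, and the Ccl20 receptor Ccr6, in every library of the 4 subsets; circles are replicate 1, triangles replicate 2 and lines the mean, and each panel starts at 0 with its own range. Msln and Ccl6 are higher in the Tspan8pos libraries, whereas Tnfrsf11a, Tnfrsf11b, Relb and Ccr6 are highest in Tspan8neg MHCIIhi.

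Of the receptors of the members' chemokines, Ccr6 went the other way from its ligand Ccl20 between the Tspan8 levels. Between MHCIIhi and MHCIIlo both had positive log2 differences at each Tspan8 level, with those of Ccl20 (0.54 and 0.29) not called. Ccr6 had 7 and 13 counts in Tspan8neg MHCIIlo, 74 and 121 in Tspan8neg MHCIIhi, 33 and 21 in Tspan8pos MHCIIhi and 1 in each library of Tspan8pos MHCIIlo, which is under the floor. Within MHCIIhi Ccr6 was lower in Tspan8pos by a log2 difference of -1.51 ± 0.37 (adjusted p = 0.00785), a call lost in 5 of 15 alternatives, and within Tspan8neg it was higher in MHCIIhi by 2.59 ± 0.42 (adjusted p = 0.00054). It was also called lower in Tspan8pos within MHCIIlo and higher in MHCIIhi within Tspan8pos, where the counts give no resolved fold, and these calls were lost in 6 of 14 and 2 of 15 alternatives. Ccr1, the receptor of Ccl9, had between 1 and 39 counts a library and was not called.

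Of 13 relatives of the members, 3 were called higher in Tspan8pos at each MHCII level, namely Ccl6, Pglyrp3 and Pglyrp4. Of all tested genes 12.1% were called higher in Tspan8pos within MHCIIlo and 11% within MHCIIhi. Pglyrp4 was at 2.25 to 7.56 CPM in the Tspan8neg and at 70.9 to 98.4 CPM in the Tspan8pos libraries, with log2 differences of 5.36 ± 0.26 and 3.53 ± 0.20, and Pglyrp3 was higher by 5.26 ± 0.39 and 4.45 ± 0.36. Pglyrp3 had only 2 and 7 counts in Tspan8neg MHCIIlo, the first under the floor, and its MHCIIlo value was 4.73 without replicate 1 and 6.25 without replicate 2 of that subset, so that the size of the fold is not resolved. Pglyrp2 was higher in MHCIIhi, by 2.64 ± 0.18 in Tspan8neg and 1.66 ± 0.17 in Tspan8pos, with Tspan8 differences of 0.45 ± 0.19 and -0.53 ± 0.16 that were not called, whereas those of Pglyrp1, Pglyrp3 and Pglyrp4 were called. Exoc3l4, a relative of Tnfaip2, was higher in MHCIIhi by 1.52 ± 0.16 in Tspan8neg and by 1.06 ± 0.16 in Tspan8pos, the second lost without replicate 2 of Tspan8pos MHCIIhi (0.86) and without replicate 1 or 2 of Tspan8pos MHCIIlo (1.13 and 1.01). Sox9 was lower in MHCIIhi, with log2 differences of -1.04 ± 0.14 in Tspan8neg and -1.31 ± 0.14 in Tspan8pos, the first lost in 9 of 15 alternatives, in which its size fell short of 1, down to -0.91. Spi1, the nearest relative of Spib, had between 1 and 57 counts a library and was not called. Its Tspan8 differences were -2.78 in MHCIIlo and -1.56 in MHCIIhi. Over the alternatives they ran from -3.54 to -1.38 and from -3.96 to -0.68, and the first was called in 2 of 14. Within Tspan8neg 5 of the 13 were called higher in MHCIIhi and 1 lower, beside 13.1% and 9.67% of all tested genes, and within Tspan8pos 2 higher and 1 lower, beside 4.59% and 2.62%. The 5 fell to 3, without Sox10 and Pglyrp4, when replicate 1 or 2 of Tspan8neg MHCIIlo or replicate 2 of Tspan8neg MHCIIhi was left out, and to 2 after thinning. The 2 within Tspan8pos fell to 1 in the settings given for Exoc3l4.

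The genes whose log2 levels followed a member most closely over the 8 libraries are given as a description, from 11048 genes that averaged 10 CPM or more. They were Inpp5b for Spib (r = 0.9858), Ldhd for Sox8 (r = 0.9923), Serpinb6a for Gp2 (r = 0.9986), Muc5b for Tnfaip2 (r = 0.9986), Spink1 for Ccl9 (r = 0.9940), Kcnj16 for Ccl20 (r = 0.9916) and Rab3d for Pglyrp1 (r = 0.9971). The points are 4 pairs of replicates and share their subset, so that any gene with the same order of subsets scores high. Inpp5b, for example, was at 68.6, 101.4, 93.5 and 198.3 CPM on average in Tspan8neg MHCIIlo, Tspan8neg MHCIIhi, Tspan8pos MHCIIhi and Tspan8pos MHCIIlo, with its high value in Tspan8pos MHCIIlo, as for Spib. The next genes were Izumo4 and Chn1 for Spib, Tmem50a and Cmas for Sox8, Pfkfb2 and Dnm2 for Gp2, Neat1 and Kprp for Tnfaip2, Duox2 and Lcn2 for Ccl9, Pm20d1 and Fam32a for Ccl20, and Gsta4 and Eps8l2 for Pglyrp1.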

How the data were processed

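The deposited table holds estimated counts per gene that the authors made with Salmon 1.8.0 from 54-base reads, and FastQC and DESeq2 1.30.0 are also named in the submitters' processing notes. The build was mm10 and the study's methods name Gencode vM10. Symbols, coordinates and exon lengths were taken here from GENCODE vM21 (GRCm38), which matched 25336 of 25466 identifiers. A stranded kit is named in the labels and a tagmentation protocol in the methods, so strand is not settled. The estimated counts in the table were whole numbers. They were filtered with filterByExpr and scaled by TMM. Tests were made with edgeR 4.0.16 (R 4.3.3, limma 3.58.1) in a single model of the 4 subsets over 8 libraries. Benjamini-Hochberg adjustment was made over all 17006 genes tested. Calls needed an adjusted p under 0.01 and a log2 fold change of at least 1. DESeq2 1.42.0, other scaling, filters and thresholds, a replicate block and leaving out each library were alternatives, and thinning to 1941518 counts was added after seeing the data. The members, gene lists and marker lists were chosen with earlier results of these data known. All members were named, with at most 4 genes of each further list by smallest adjusted p, besides Tnfrsf11a, Ccr6, Ccr1, Ccl6, Umod, Spi1, Sox9 and Exoc3l4. For each member the 3 genes with the highest Pearson correlation of log2 CPM were listed. The floor of 3 counts covers counting error only. The fitting steps were tested on simulated data.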

Additional observations from a re-analysis of the deposited data

Results flagged for a closer look

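The interaction term of the edgeR model was read for the 7 members and for further lists of 12, 11, 2 and 13 genes. These lists share Ccl6 and Umod, and 4.6% of all tested genes were called in either direction. For 6 genes this term found that the Tspan8 difference changed between MHCIIlo and MHCIIhi by more than the spread between libraries. The value for Spib, -1.52 on the log2 scale, is the only one among the 7 microfold members (adjusted p = 0.00218). Ctsh had the largest, -2.49 (adjusted p = 0.000234), since it was low in Tspan8neg MHCIIlo and at a like level in the other 3 subsets, and its call was kept in all 14 alternatives. The value was -1.06 for Prnp (adjusted p = 0.00513), which was at 273.3 and 249.7 CPM in Tspan8neg MHCIIlo, 591.9 and 553.3 CPM in Tspan8neg MHCIIhi, 392.9 and 346.2 CPM in Tspan8pos MHCIIhi and 373.2 and 329.8 CPM in Tspan8pos MHCIIlo. The value was -1.27 for Tnfrsf11b (adjusted p = 0.00628) and -1.83 for Pglyrp4 (adjusted p = 0.00901). Scg5 went in the other direction, at 1.47 (adjusted p = 0.0091), with 52.8 and 46.1 CPM in Tspan8pos MHCIIhi and 19.8 to 33.4 CPM elsewhere. The call of Spib was lost with each of 4 libraries left out. The other calls were lost in 8 of 14 alternatives for Prnp, 6 for Tnfrsf11b, 9 for Scg5 and 8 for Pglyrp4. Prnp and Scg5 were named after their values were seen.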

How the results depend on the processing

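Among the recomputed log2 differences of members, 785 kept direction and call, 8 became called, 16 lost the call and 17, none of them called, changed sign. The cause was not tested. The number of members called between MHCIIhi and MHCIIlo went from 0 to 1 within Tspan8neg (Gp2) and from 0 to 1 within Tspan8pos (Spib), each after thinning and with no limit on the fold change. With 1 library left out the members called numbered 6 to 7 for Tspan8pos against Tspan8neg in MHCIIlo, 4 to 6 in MHCIIhi, 0 to 1 for MHCIIhi against MHCIIlo in Tspan8neg, 0 to 0 in Tspan8pos, 5 to 6 for each cross comparison and 0 to 2 for the interaction, where Ccl20 (-1.51) joined Spib without replicate 2 of Tspan8neg MHCIIlo. DESeq2's Wald test called 5 rather than 6 members between Tspan8pos MHCIIlo and Tspan8neg MHCIIhi, without Ccl20 (1.61, adjusted p = 0.0319).

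The values that changed sign in MHCIIhi against MHCIIlo within Tspan8neg were those of Sox8 (0.35 without replicate 2 of Tspan8neg MHCIIlo, 0.0485 without replicate 1 of Tspan8neg MHCIIhi) and, without replicate 1 of Tspan8neg MHCIIlo, of Tnfaip2 (-0.10), Ccl9 (-0.0860) and Ccl20 (-0.11). With any 1 library left out these values ran from -0.69 to 0.35 for Sox8, -0.10 to 0.14 for Tnfaip2, -0.0860 to 0.91 for Ccl9 and -0.11 to 1.8 for Ccl20. In the interaction, that of Gp2 was -0.0335 with DESeq2 size factors, -0.0314 with no filter, -0.0040 with at least 10 counts in 4 libraries, -0.0293 by DESeq2 and, with 1 library left out, -0.29, -0.26, -0.0242 or -0.0808, in a range of -0.29 to 0.33. Also there, and each with 1 library left out, Ccl9 was at -0.16 (range -0.16 to 0.85), Ccl20 at 0.42 (range -1.51 to 0.42) and Pglyrp1 at -0.11 or -0.0538 (range -0.11 to 0.41).

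The deviations of same-numbered libraries correlated weakly, at 0.00402 to 0.0924 in the 6 pairs of subsets, all of them above 0. These values cannot decide whether equal replicate numbers mark libraries prepared together, which is not stated. The replicate block left the members called at 7, 6, 0, 0, 6, 6 and 1 in the 7 comparisons, in the order of the report's tests with the interaction last, and raised the number of all genes called in the interaction from 783 to 1236.

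Over all genes, the interaction also gave 1267 calls with no filter and 1754 at an adjusted p under 0.05, and MHCIIhi against MHCIIlo within Tspan8pos 1858 instead of 1226 at that threshold. With 1 library left out, calls fell from 3640 to 2273 for Tspan8 in MHCIIlo (without replicate 2 of Tspan8pos MHCIIlo, with 66.5% rather than 56.4% higher), from 3143 to 2045 or 2089 in MHCIIhi (without replicate 1 or 2 of Tspan8neg MHCIIhi), from 3866 to 2360 for MHCII in Tspan8neg (without replicate 2 of Tspan8neg MHCIIhi) and to 427 to 720 in Tspan8pos, and lay between 189 and 1385 for the interaction. The share higher was 73.1% rather than 59.7% for Tspan8 in MHCIIhi without replicate 1 of Tspan8pos MHCIIhi, 53.4% rather than 63.6% for MHCII in Tspan8pos without replicate 2 of Tspan8pos MHCIIlo, and 34.0% rather than 48.7% for the interaction without replicate 1 of Tspan8neg MHCIIhi. A fit on only the 4 libraries compared gives no interaction.

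Limits are the 2 libraries per subset, which leave a lone library in a subset when 1 is left out so that it is assumed to vary like the others, and depth, which differed 4.01-fold between libraries. Bulk levels do not give the share of microfold cells.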
